A study of Mus musculus with 663 samples.

Results

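Transcripts of 35 genes of DNA replication and mitosis were followed in single somatic cells of the developing mouse ovary. The genes were taken by name from 43320 gene rows of the deposited table, and all 35 were found. They comprise 16 genes whose products act from G1 into S phase, called the S phase members here, and 19 genes of the G2 phase and mitosis, called the G2/M members. The cells were sorted live from XX gonads for green fluorescence of the NR5A1-eGFP genotype, on a mixed background. That reporter marks cells of the gonadal somatic lineage, so each stage is a sorted fraction of its gonad and not the whole organ. The 662 cells came from 12 captures, each a run of a small C1 microfluidic chip, namely 1 capture of 71 cells at E10.5 (E, embryonic day), 3 captures of 53, 53 and 57 cells at E12.5, and 2 captures at each other stage (106 cells for E11.5, as many for E13.5, 95 for E16.5 and 121 for postnatal day 6, P6). Per the labels, no treatment or mutation distinguished the groups, which differed in age and in part in sequencing run.

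Cells that divide first license their replication origins. The proteins Cdc6 and Cdt1 load the MCM helicase, made of Mcm2 to Mcm7, onto DNA in G1, and Cdc45 and the GINS complex join it to open the double strand in S phase. The transcription factors of the E2F family switch on many of these genes late in G1. Genes of G2 and mitosis are switched on later, largely through promoters that carry a CHR element (cell cycle genes homology region) and boxes bound by the factor NF-Y, and the DREAM complex represses them in resting cells. In the fetal ovary, somatic progenitors divide and then give rise to supporting cells, the pregranulosa cells that express Foxl2, and to stromal cells, many of which express Nr2f2. Pregranulosa cells are known to arrest in the fetal ovary, and granulosa cells divide once follicles grow.

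The promoters of the members differed by class. The windows of 300 bases around RefSeq start sites (GRCm38.p6; 250 bases before and 50 after) were searched on both strands for the E2F-type words TTTGGCGC, TTTCCCGC, TTTGCCGC, TTTCGCGC and GGCGGGAA, for the CHR core TTTGAA and for the NF-Y box CCAAT. A window was held for 13 of 16 S phase members and 15 of 19 G2/M members. E2F-type words were present in 7 of 13 S phase members (53.8%) and 1 of 15 G2/M members (6.67%), against 4.46% of 27025 genes. The CHR core was present in 2 of 13 S phase members (15.4%) and 11 of 15 G2/M members (73.3%), against 20.2% of all genes. The NF-Y box was found in 9 of 13 S phase members, 14 of 15 G2/M members and 41.1% of all genes. Of the genes outside the members, 9 of 17 other replication genes held an E2F-type word, and 14 of 19 other mitosis genes held a CHR core. A match is a description of letters, not evidence of a bound factor. The 5 stretches below are the 120 bases just before the start site of members with such a match, read 5′ to 3′ on the gene's strand, with all matched words in capitals. Mcm6 (chr1:128359706-128359825, minus strand) and Rrm1 (chr7:102441575-102441694, plus strand) show E2F-type words beside NF-Y boxes. In Mcm6, the longest run of capitals holds overlapping E2F-type words of both strands. Mki67 (chr7:135716380-135716499, minus strand), Top2a (chr11:99024190-99024309, minus strand) and Kif11 (chr19:37376262-37376381, plus strand) show the CHR core, which in Top2a begins at position -23 and in Kif11 at position -19 from the start.
Mcm6: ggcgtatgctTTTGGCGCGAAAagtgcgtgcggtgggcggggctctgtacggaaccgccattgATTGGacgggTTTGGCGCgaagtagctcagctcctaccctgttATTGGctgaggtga
Rrm1: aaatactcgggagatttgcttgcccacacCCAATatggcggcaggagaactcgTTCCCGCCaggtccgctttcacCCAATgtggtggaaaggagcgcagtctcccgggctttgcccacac
Mki67: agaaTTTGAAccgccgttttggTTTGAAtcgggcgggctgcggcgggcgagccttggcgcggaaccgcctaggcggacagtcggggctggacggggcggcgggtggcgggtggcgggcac
Top2a: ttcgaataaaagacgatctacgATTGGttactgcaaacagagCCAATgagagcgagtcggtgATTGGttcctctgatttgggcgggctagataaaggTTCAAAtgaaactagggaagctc
Kif11: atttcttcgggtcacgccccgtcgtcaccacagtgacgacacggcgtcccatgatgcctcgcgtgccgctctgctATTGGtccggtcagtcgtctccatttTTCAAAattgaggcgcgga

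**Figure D1:**
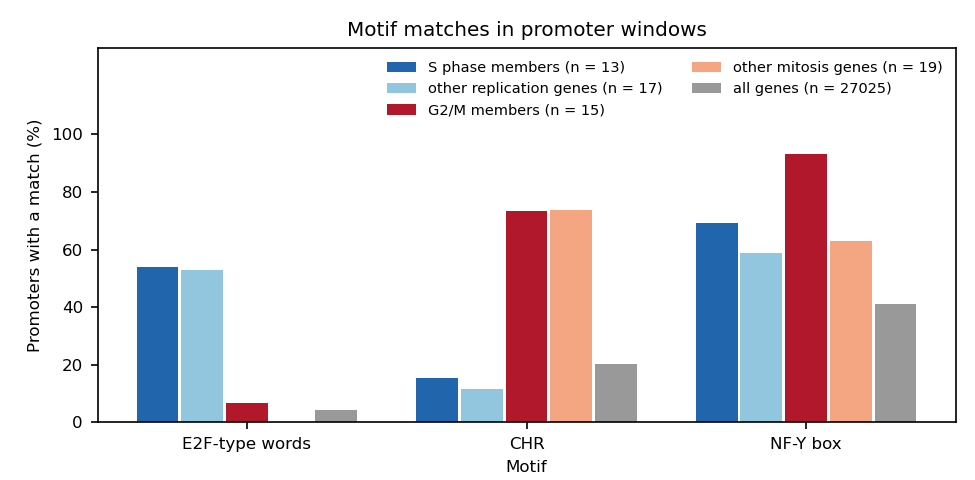
Share of promoter windows (y axis, percent of genes with a window) that hold each motif (x axis), with 1 bar per gene set and the number of windows in the key. The S phase members stand at 53.8% for E2F-type words and the G2/M members at 73.3% for the CHR core, against 4.46% and 20.2% of all genes.

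Before the levels, 3 facts about the libraries bear on them. The median number of detected genes per cell lay between 3640 and 7976 in the captures, highest at E10.5 and lowest in P6 capture 2. E12.5 capture 2 stood apart, with 3869 detected genes, a median RPKM total of 667269 against 392203 to 424512 elsewhere, and Y-linked transcripts in 40 of 53 cells against 0 to 4 cells in the other captures, although labelled XX. Its values are given by capture, and stage means that include it are followed by the value without it. Nr5a1 (13.9 to 72.8 RPKM), Wt1 (40.9 to 211) and Gata4 (18.7 to 67.1), genes of the gonadal soma, were present in every capture. The summed level of 4 germ cell markers was 0 to 4.94 RPKM, with Dazl at most 4.66 and Ddx4 at most 3.03. At E10.5 the 3 mesonephros markers summed to 57.5 RPKM, against 0 to 9.89 elsewhere, with Lhx1 at 30.8 and Pax8 at 23. The part of mesonephric cells in the E10.5 values was not tested.

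Levels were read as means over the cells of a capture, in RPKM (reads scaled to gene length and library size, as deposited). E10.5 held the highest capture mean for 31 of 35 members, 13 of 16 of the S phase and 18 of 19 of G2/M. The exceptions were Mcm2, Mcm6 and Cdt1, highest in E11.5 capture 2, and Ube2c, highest in E12.5 capture 2. The lowest mean lay in E16.5 capture 1 for 12 members, 10 of them G2/M, in E12.5 capture 3 for 9, and in E12.5 capture 2 for 6. The share of all genes with their highest or lowest mean in these captures was not computed. E10.5 was a single capture, and the one with the most detected genes per cell. Across the 16 S phase members the median level was 57.5 RPKM (E10.5), 36.2 and 48.1 (E11.5), 21.7, 19 and 26.4 (E12.5), 28.1 and 34.7 (E13.5), 23.9 and 16.6 (E16.5), and 29.5 and 17.6 (P6). Across the 19 G2/M members it was 44.3, then 19.3 and 19.2, then 10.1, 18.9 and 6.93, then 15.8 and 10.2, then 3.31 and 9.88, then 8.71 and 19.6 RPKM in the same order.

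**Figure D2:**
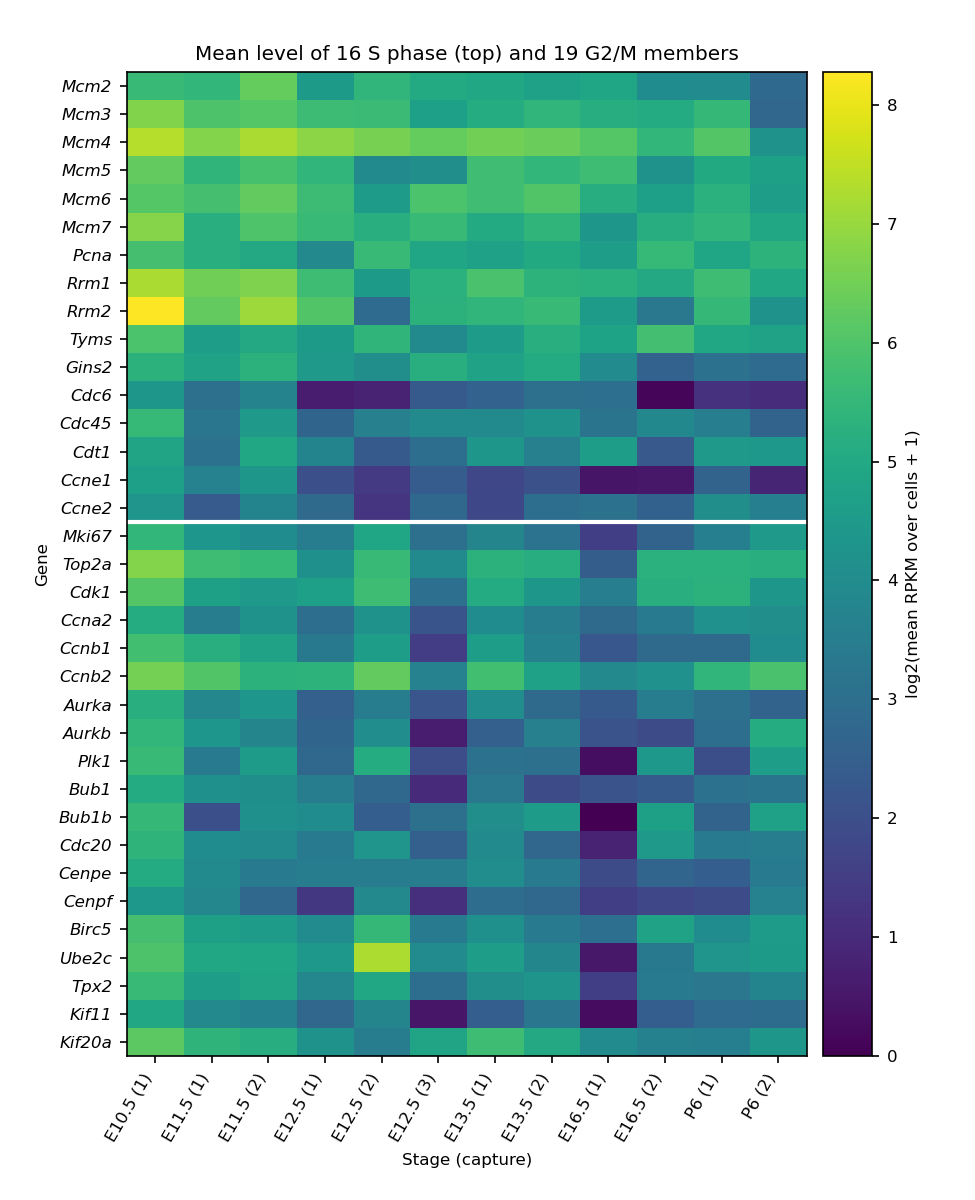
Mean level of each member (rows; S phase members above the white line) in each capture (columns, stage with capture number), as colour on a log2(mean RPKM over cells + 1) scale. The E10.5 column is the brightest for 31 of 35 genes, and E16.5 capture 1 is the darkest for 12. The same shares over all genes were not computed.

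Among the helicase subunits, Mcm2 (chr6:88883474-88898780 in GRCm38, minus strand) had a mean of 46.7 RPKM (E10.5), 43.5 and 79.8 (E11.5), 21.9, 42.8 and 32.5 (E12.5), 29.7 and 25.5 (E13.5), 28.7 and 15.3 (E16.5), and 14.8 and 6.17 (P6). It was highest in 1 E11.5 capture and lowest at P6, and the E16.5 and P6 captures did not overlap. Mcm4, another subunit, was the most abundant of the 6 in 11 of 12 captures, at 163.1 RPKM (E10.5), 106.9 and 148.4 (E11.5), 68.1 and 43.2 (E16.5), and 65.1 and 17.4 (P6). Mcm3, Mcm5 and Mcm7 were highest at E10.5 (104.5, 77.1 and 109.2 RPKM). The loading factor Cdc6 had 19.7 RPKM (E10.5), 7.39 and 12 (E11.5), 0.547, 0.721 and 4.04 (E12.5), 5.04 and 7.32 (E13.5), 7.19 and 0.0848 (E16.5), and 1.29 and 1.09 (P6), and its E16.5 captures lay far apart. Cdt1 showed no such order by age, with 27.6 RPKM (E10.5), 7.75 and 29.7 (E11.5), and 21.1 and 20.3 (P6). Cdc45 and Gins2, which complete the active helicase, had 46.1 and 39.2 RPKM at E10.5. At P6 they had 10.51 and 5.23 RPKM (Cdc45) and 7.46 and 6.39 RPKM (Gins2), and the P6 captures of both lay below those of E13.5.

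Of the genes that supply and hold the replication fork, Pcna (chr2:132249162-132253314, minus strand), the sliding clamp of the polymerase, varied without an order by age. It had 55.6 RPKM (E10.5), 35.8 and 30.9 (E11.5), 14, 47.7 and 28.1 (E12.5), 25.5 and 31.6 (E13.5), 23.8 and 45.3 (E16.5), and 28.7 and 39.5 (P6). Rrm2 (chr12:24708241-24714146, plus strand), the small subunit of ribonucleotide reductase, was the steepest of the fork genes, at 309 RPKM (E10.5), 77.9 and 133.7 (E11.5), 64.5, 6.51 and 39.1 (E12.5), 43.1 and 46.2 (E13.5), 22.4 and 8.93 (E16.5), and 45 and 17.7 (P6). Its E10.5, E11.5 and E13.5 captures did not overlap, nor did those of E13.5 and E16.5. The large subunit Rrm1 had 150 RPKM (E10.5) and 29.3 to 51.7 over the E16.5 and P6 captures. Tyms, which makes thymidylate, had 59.4 RPKM (E10.5) and 27 and 54.7 (E16.5). The G1/S cyclins were scarce. Ccne1 (chr7:38097984-38107534, minus strand) had 24.3 RPKM (E10.5), 11.6 and 19.7 (E11.5), 3.08, 1.67 and 4.27 (E12.5), 2.39 and 3.13 (E13.5), 0.372 and 0.437 (E16.5), and 5.25 and 0.815 (P6). Both E16.5 captures were the lowest of all 12. Ccne2 was lowest in E12.5 capture 2 (1.45 RPKM) and stood at 16 and 10.9 at P6.

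The proliferation marker Mki67 (chr7:135689784-135716361, minus strand) opened the G2/M members with 43.3 RPKM (E10.5), 19.3 and 15.3 (E11.5), 10.3, 28.2 and 7.26 (E12.5), 12.54 and 7.86 (E13.5), 1.89 and 5.19 (E16.5), and 11 and 21 (P6). The E16.5 captures were the lowest and did not overlap with either neighbouring stage. Top2a (chr11:98992943-99024189, minus strand), the topoisomerase that untangles chromosomes, had 105.2 RPKM (E10.5), 51.1 and 45.6 (E11.5), 16.9, 47.1 and 14.1 (E12.5), 39 and 34.9 (E13.5), 4.45 and 38.4 (E16.5), and 38.4 and 35.1 (P6). All Top2a captures from E13.5 on lay between 34.9 and 39 RPKM except E16.5 capture 1. The mitotic cyclin Ccnb1 (chr13:100778650-100786570, minus strand) had 53.2 RPKM (E10.5), 36.6 and 26.4 (E11.5), 9.06, 23.8 and 1.85 (E12.5), 24.1 and 11.6 (E13.5), 3.8 and 6.27 (E16.5), and 6.19 and 15.4 (P6). Its kinase partner Cdk1 had 66.4 RPKM (E10.5) and 10.6 and 35.7 (E16.5). Ccnb2, another mitotic cyclin, had 93.2 RPKM (E10.5) and 42.4 and 58.5 (P6), against 13.8 and 17.4 (E16.5).

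Genes of the spindle checkpoint and of exit from mitosis differed widely between captures of 1 stage. Cdc20 (chr4:118432901-118437352, minus strand), which activates the anaphase-promoting complex, had 40.3 RPKM (E10.5), 15.2 and 14.2 (E11.5), 9.86, 18.9 and 4.86 (E12.5), 14.7 and 5.71 (E13.5), 0.766 and 20.7 (E16.5), and 9.85 and 10.48 (P6). Ube2c, the ubiquitin-conjugating enzyme of that complex, reached 153.5 RPKM in E12.5 capture 2, against 20.3 and 14.9 in the other E12.5 captures. It stood at 61.3 (E10.5) and at 0.455 and 9.24 (E16.5). The spindle checkpoint kinase Bub1b had 44.3 RPKM (E10.5) and 0.00324 and 24.9 in the E16.5 captures, and the mitotic kinase Plk1 had 48 (E10.5) and 0.231 and 20.3 (E16.5). The motor Kif11 had 29.99 RPKM (E10.5), 14 and 11.6 (E11.5), 4.51 and 8.42 (E13.5), and 0.202 and 4.55 (E16.5). Aurkb, the kinase of the chromosomal passenger complex, had 43.3 RPKM (E10.5) and 6.87 and 33.9 (P6), and its partner Birc5 had 55.5 and then 15.3 and 22.2. The centromere proteins Cenpe and Cenpf had 33 and 20.2 RPKM (E10.5) and at most 5.43 and 2.42 (E16.5).

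Few cells made up the G2/M levels at E16.5. In E16.5 capture 2, the 3 highest of 40 cells held a median of 97.2% of the summed RPKM of a G2/M member, and in capture 1 the 3 highest of 55 cells held 94.7%. At E10.5 the 3 highest of 71 cells held 22.3%. In the other captures the 3 highest cells held between 59.6% (E11.5 capture 2) and 84.8% (P6 capture 1), so E16.5 differed from those in degree. E16.5 capture 2 also had the fewest cells, of which 3 are a larger part. For Bub1b, 1 cell at 708 RPKM made 71% of the capture 2 sum, while no cell of capture 1 exceeded 0.109 RPKM. Without the cells that hold at least 6 G2/M members at 10 RPKM or more, the median G2/M member was at 2.32 RPKM in capture 1 and 2.43 in capture 2, against 3.31 and 9.88 with them. Those cells were chosen on the same members, so a lower median without them follows in part from that choice.

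Per member, the share of cells and the level within them told apart what the means combine. A cell was counted for a member at 10 RPKM or more. At each stage after E10.5, all 16 S phase and all 19 G2/M members were found in a smaller mean share of cells than at E10.5. The same count over all genes was not made. A median cell held 3975 genes at 10 RPKM or more at E10.5. In the other captures it held between 2016.5 (P6 capture 2) and 3461 (E13.5 capture 1), so part of the fall may not be particular to the members. For the median S phase member the share was 72.5% (E10.5), 49.1% (E11.5), 29.3% (E12.5), 42.5% (E13.5), 18.1% (E16.5) and 18% (P6). For the median G2/M member it was 56.3%, 20.8%, 13.7%, 13.2%, 5.91% and 10.2%. Without E12.5 capture 2, the E12.5 shares were 30.2% (S phase) and 10.2% (G2/M). The level within those cells had no such order, with medians between 84.1 and 141.7 RPKM for S phase and between 83.8 and 131.6 RPKM for G2/M members. The lowest G2/M value is that of E12.5, which includes capture 2 and was not recomputed without it. At P6, 18 of 19 G2/M members had a higher level in the cells that held them than at E10.5, and 9 of 16 S phase members did. Both measures have a floor of 10 RPKM, so a level within counted cells cannot approach 0.

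**Figure D3:**
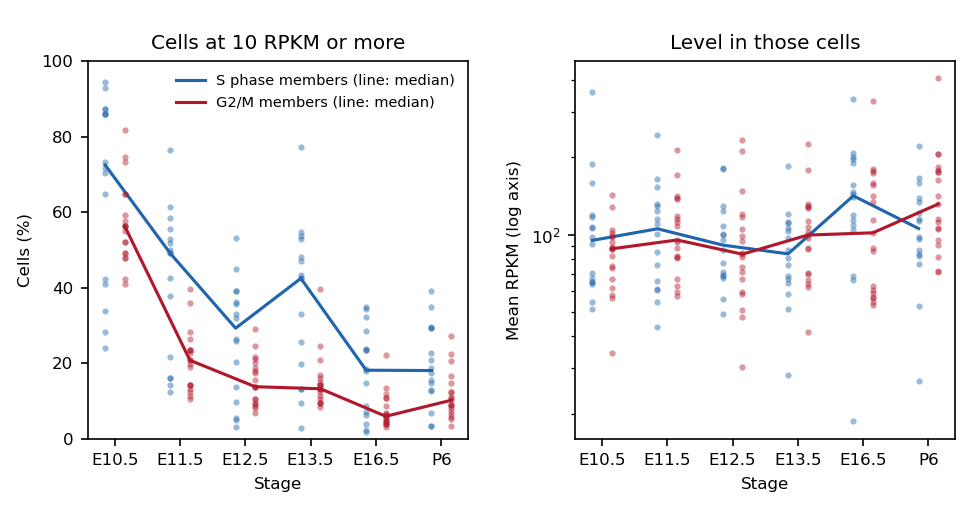
Left, share of cells at 10 RPKM or more (y axis, percent, mean over captures) and right, mean RPKM within those cells (log axis), by stage, with 1 point per member and lines through the medians. The G2/M median lies at 56.3% of cells at E10.5 and 5.91% at E16.5, and the median level within those cells lies between 83.8 and 131.6 RPKM.

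Single genes are given here with their spread (SD over captures), and not all had the pattern of the medians. Top2a was at 10 RPKM or more in 81.7% of cells at E10.5, 35.8% ± 10.7 (E11.5, n = 2), 29.1% ± 17.3 (E12.5, n = 3), 20.8% ± 2.67 (E13.5, n = 2), 10.8% ± 2.41 (E16.5, n = 2) and 22.4% ± 1.71 (P6, n = 2). Without E12.5 capture 2 its E12.5 share was 19.1% ± 2.27 (n = 2). Its level in those cells was 128.2 RPKM (E10.5), 178 ± 37.4 (E13.5) and 162.6 ± 1.76 (P6). For Rrm2, both share and level were below those of E10.5 at each later stage. Its share was 85.9% (E10.5), 42.5% ± 4.0 (E11.5) and 7.05% ± 2.89 (E16.5). Its level in those cells was 359 RPKM, then 245 ± 70.2, then 209 ± 51.5. Pcna kept the broadest share among these at late stages, at 34.3% ± 13.2 (E16.5) and 39.1% ± 3.86 (P6). Ccne1, which normally peaks for a short time at the G1/S boundary, was found in 23.9% of cells at E10.5 and in 2.83% ± 1.33 (E13.5), 2.16% ± 0.482 (E16.5) and 3.33% ± 0.429 (P6). Over all stages, 87% of cells with Mki67 also held Top2a, and 56.4% of cells with Top2a held Mki67. Of cells with Ccnb1, 69.9% also held Cdk1, from 45.5% at E12.5 (capture 2 included and not recomputed without it) to 100% at P6. In turn, 49.4% of cells with Cdk1 held Ccnb1. These shares pool stages that differ in how many cells held each gene.

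A cell was then called S when at least 6 of 16 S phase members, and G2/M when at least 6 of 19 G2/M members, reached 10 RPKM. These calls are ranges of a score: 87 of 662 cells lay at 5 or 6 S phase members and 25 at 5 or 6 G2/M members. At E10.5, 15 of 71 cells were S only (21.1%, exact 95% interval 12.3 to 32.4), 0 were G2/M only, which allows a share of up to 4.23% (3 counts of the total), 53 were both (74.6%) and 3 were neither. At E11.5 the counts were 36 S only, 2 G2/M only and 23 both. At E12.5 they were 26, 11 and 19, and at E13.5 42, 3 and 13. At E16.5 they were 11, 3 and 2, and at P6 16, 8 and 10. Over all stages, 81.6% of G2/M cells were also S, and 45.1% of S cells were also G2/M. All 53 G2/M cells at E10.5 were also S, against 2 of 5 (E16.5) and 10 of 18 (P6). Intervals cover counting error over cells only.

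Cells called S or G2/M made up 95.8% at E10.5 (interval 88.1 to 99.1), 57.5% ± 6.67 (E11.5, n = 2), 34.5% ± 5.89 (E12.5, n = 3), 54.7% ± 0 (E13.5, n = 2), 16.6% ± 2.25 (E16.5, n = 2) and 28.3% ± 3.64 (P6, n = 2). By capture the shares were 52.8% and 62.3% (E11.5), 35.8%, 39.6% and 28.1% (E12.5), 54.7% in each E13.5 capture, 18.2% and 15% (E16.5), and 30.9% and 25.8% (P6). At these thresholds, captures of neighbouring stages did not overlap. Those of E11.5 and E13.5 lay above all E12.5 captures, and those of E16.5 below all others. No test was made of these shares, since they are scores over the members. E12.5 capture 2 had 9 of the 11 G2/M only cells of its stage, and without it the E12.5 share was 32% ± 5.50 (n = 2) and the G2/M only share 1.82%.

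Depth moved with these shares. S only cells had a higher median of detected genes than neither cells in 11 of 12 captures, for example 7621 (S only) and 8052 (both) against 5852 (neither) at E10.5, and 5747 and 7144 against 4376.5 in P6 capture 1. In E16.5 capture 1 the order was reversed, with 4790.5 for S only and 4870 for neither. Among cells with at least 5000 detected genes, a limit chosen after the data had been seen, the share of S or G2/M cells was 97% (E10.5), 59.9% (E11.5), 53.3% (E12.5), 57.9% (E13.5), 15.6% (E16.5) and 58.8% (P6). At E12.5 that share was 81.8% of 11 cells in capture 2 and 41.5% and 36.6% of 41 cells each in captures 1 and 3, so without capture 2 it was 39.02%. The E16.5 share stayed the lowest under that limit, and the P6 share, which then rests on 26 and 5 cells, was about that of E13.5. More RNA in dividing cells and a better chance to detect members in deeper cells cannot be told apart here.

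**Figure D4:**
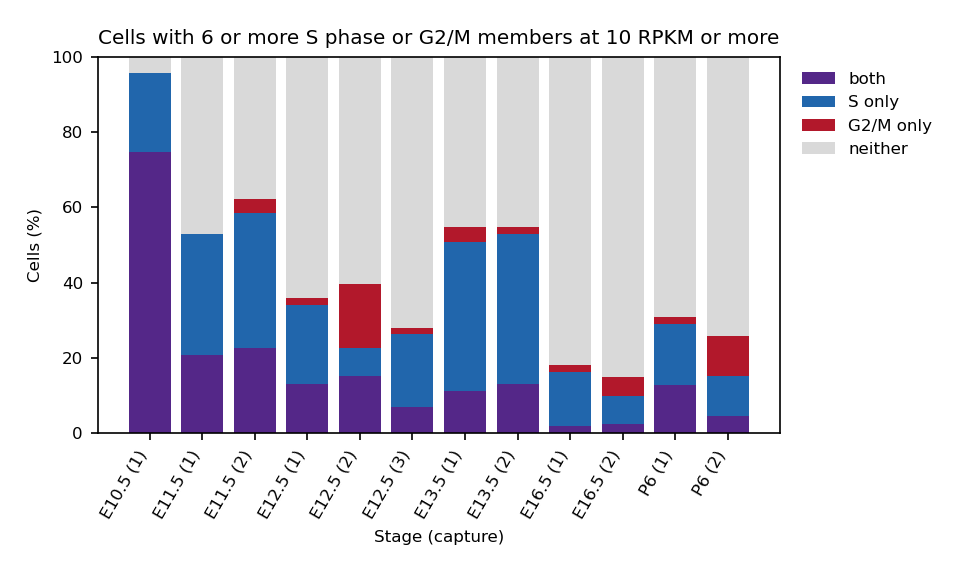
Share of cells (y axis, percent) called both, S only, G2/M only or neither in each capture (x axis, stage with capture number). Cells called S or G2/M make up 95.8% of the E10.5 capture and 18.2% and 15% of the E16.5 captures.

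Stages were compared with limma on log2(capture mean RPKM + 1) over 19710 genes, with the sequencing series (the run code of the library titles) as a term. The first series held all captures up to E13.5 except E12.5 capture 3, and the second held the rest. Fold changes on this scale understate those of low genes. From E10.5 to E11.5 the median of the 35 members was -1.11 (log2), against 0 for all genes, and 34 of 35 were lower, by up to 2.42. No member passed an adjusted p of 0.05, where 191 genes did (0.969% of those tested), and 1 of 35 members had an unadjusted p under 0.05 (5.02% of all genes). That was Cdc45, with a log2 change of -1.70 ± 0.71 (SE; limma adjusted p = 0.965). The E10.5 mean lay above both E11.5 means for 32 of 35 members, against 34.2% of all genes. E10.5 had 1 capture, whose spread was taken from the other stages. Averaging log2 values over cells in place of RPKM moved this result: 17 of 35 members (4 S phase and 13 G2/M) were lower with an adjusted p under 0.05, as were 427 genes (2.17%), with a member median of -2.07. Those calls rest on the same single E10.5 capture and its assumed spread. Kif11 (log2 change -2.13, adjusted p = 0.00491) and Bub1 (-2.04, adjusted p = 0.00688) had the lowest adjusted p of them. That average gives weight to the number of cells with a transcript and little to the level in the highest cells.

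From E11.5 to E13.5, both in the first sequencing series, the member median was -0.54 against 0.01 for all genes, and 29 of 35 members were lower. No member and no other gene passed limma's adjusted threshold (0%), and 2 members had an unadjusted p under 0.05 (5.29% of all genes), namely Ccne1 (-2.11 ± 0.67, adjusted p = 0.705) and Bub1 (-1.52 ± 0.53, adjusted p = 0.786). Both E13.5 captures lay below both E11.5 captures for 17 of 35 members (7 S phase, 10 G2/M), against 18.2% of all genes, and the reverse held for 0 members. Mcm2, Rrm1, Rrm2 and Cdc6 were among the S phase members, and Mki67, Top2a, Ccnb1 and Plk1 among the G2/M members.

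From E13.5 to E16.5 the comparison crosses the sequencing series and rests on E12.5 captures of both. The S phase members had a median of -0.57 and the G2/M members 0.60, against -0.15 for all genes. No member passed limma's adjusted threshold, where 0.528% of genes did, and 3 had an unadjusted p under 0.05 (7.27% of all genes). These were Kif20a, a mitotic kinesin (-2.49 ± 0.70, adjusted p = 0.344), Gins2 (-2.54 ± 0.77, adjusted p = 0.416) and Mcm6 (-1.79 ± 0.71, adjusted p = 0.647). The direction over the members was not stable: their median of -0.25 became -0.73 without the series term, 0.31 without E12.5 capture 1 and 0.55 without E16.5 capture 1, and it was -0.22 without E12.5 capture 2. In the means themselves, both E16.5 captures lay below both E13.5 captures for 17 of 35 members, against 23.2% of all genes, and the reverse held for 0.

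From E16.5 to P6, both in the second series, the G2/M members had a median of 0.99 with 18 of 19 higher, and the S phase members a median of -0.04 with 8 of 16 higher, against 0 for all genes. No member passed limma's adjusted threshold, where 57 genes did (0.289%), and 3 had an unadjusted p under 0.05 (8.95% of all genes). These were Mki67 (1.94 ± 0.62, adjusted p = 0.374), Ccnb2 (1.62 ± 0.49, adjusted p = 0.339) and Aurkb (2.03 ± 0.81, adjusted p = 0.525). Both P6 captures lay above both E16.5 captures for 10 of 35 members, 8 of them G2/M, against 17.3% of all genes, and below them for 1, Mcm2. Without E16.5 capture 1 the median of all members was 0.32 in place of 0.85, and without P6 capture 2 it was 0.39. Without P6 capture 1, which leaves 1 capture of that age with a spread assumed to be that of the other stages, Mcm3 fell (-2.42 ± 0.28, adjusted p = 0.0190).

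Of the 8 members whose test values were planned (Mcm2, Pcna, Rrm2, Ccne1, Mki67, Top2a, Ccnb1 and Cdc20), none had a limma adjusted p under 0.05 in a stage comparison of capture mean RPKM. With log2 values averaged over cells, Rrm2, Ccnb1, Cdc20 and Ccne1 were among the 17 with one from E10.5 to E11.5. Rrm2 differed by -1.59 ± 1.23 from E10.5 to E11.5, by -1.18 ± 1.0 from E11.5 to E13.5, by -2.44 ± 1.58 from E13.5 to E16.5 and by 0.95 ± 1.0 from E16.5 to P6. Top2a differed by -1.11 ± 1.08, -0.38 ± 0.88, -0.41 ± 1.39 and 1.36 ± 0.88 in the same order, and Pcna by -0.73 ± 0.71, -0.22 ± 0.58, 0.10 ± 0.92 and 0.03 ± 0.58. Ccnb1 differed by -0.76 ± 0.78, -0.85 ± 0.64, 0.88 ± 1.0 and 0.88 ± 0.64, and Cdc20 by -1.40 ± 1.32, -0.61 ± 1.08, 0.60 ± 1.71 and 0.85 ± 1.08. For Mcm2 the first difference was 0.33 ± 0.69 and the last -1.05 ± 0.56. These SEs are log2 units over captures, and most are of the size of the difference.

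Foxl2-positive and Nr2f2-positive cells were then compared within captures. A cell was Foxl2-positive at 1 RPKM or more of Foxl2, and Nr2f2-positive at 1 RPKM or more of Nr2f2 and under 1 of Foxl2. The classes overlap in Nr2f2, held at 1 RPKM or more by 31 of 33 Foxl2-positive cells at E13.5, 15 of 23 (E16.5) and 63 of 75 at P6. They also share markers. At P6, 5 granulosa markers summed to 856 and 249 RPKM in Nr2f2-positive cells, against 2242 and 1146 in Foxl2-positive cells. For 5 stroma markers, Foxl2-positive cells had 31.9 RPKM against 694 in E16.5 capture 1, but 711 against 769 in capture 2. The classes are therefore named by the rule and not as cell types. At E13.5, 12 of 33 Foxl2-positive cells were S only, 1 G2/M only and 1 both, while of 68 Nr2f2-positive cells 27 were S only, 2 G2/M only and 12 both. At E16.5, 0 of 23 Foxl2-positive cells were S and 2 were G2/M only, against 11 S only, 1 G2/M only and 2 both of 63. At P6, 10 of 75 Foxl2-positive cells were S only, 5 G2/M only and 7 both, against 5, 2 and 3 of 38. The share of S cells among Foxl2-positive cells was thus 42.1% and 35.7% in the E13.5 captures, 0% and 0% at E16.5 (which allows shares of up to 25% and 27.3%, 3 counts of the cells) and 38.2% and 9.76% (P6). Among Nr2f2-positive cells it was 54.5% and 60%, then 25% and 14.8%, then 18.8% and 22.7%. The Foxl2-positive share was the lower one in each of the 4 captures of E13.5 and E16.5, called the 4 fetal captures here. It was the higher one in P6 capture 1 only. In E12.5 captures 1 and 3 it was also lower, at 25% and 14.3% against 35.6% and 28%. Those E12.5 shares rest on 8 and 7 Foxl2-positive cells. Median detected genes were higher in Foxl2-positive cells in all 6 captures of E13.5, E16.5 and P6. They were 5360 against 4100 in E16.5 capture 2 and 7287 against 7124 in E13.5 capture 1.

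Rrm2 set the classes furthest apart among the S phase members. Its mean was 0.0406 and 6.72 RPKM in the Foxl2-positive cells of the E13.5 captures and 0.0105 and 1.14 in those of E16.5, against 69.2, 64.8, 34.2 and 12.8 RPKM in Nr2f2-positive cells. At P6 it was 55.6 and 12.8 RPKM against 36.6 and 28.3. So the fetal classes did not overlap, and the P6 captures differed in direction. Cdc45 had 3.57, 2.53, 0 and 0.812 RPKM in Foxl2-positive cells of the 4 fetal captures against 21.6, 25.6, 12.3 and 19.6 RPKM, and it was also lower at P6 (9.57 and 0.375 against 15.8 and 15). Mcm5 differed in direction between ages: 26.2, 33.7, 43.9 and 0.128 RPKM against 69.3, 48.8, 63.6 and 26.6 in the fetal captures, and 36.5 and 13 against 17.1 and 6.51 at P6.

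The G2/M members were mostly lower in Foxl2-positive cells in 3 of 4 fetal captures. Top2a had 10.9, 4.24 and 2.52 RPKM in Foxl2-positive cells of the E13.5 captures and E16.5 capture 1 against 56.4, 51.1 and 5.65, but 58.4 against 33.1 in E16.5 capture 2. The median G2/M difference (log2 of mean RPKM + 1, Foxl2-positive minus Nr2f2-positive) was -1.64 and -3.09 at E13.5, -1.96 in E16.5 capture 1 and 2.73 in E16.5 capture 2, where all 19 members were higher. The median S phase difference was -1.19, -1.24, -1.12 and -1.41 in the same captures. At P6 the G2/M median was 1.59 and 0.31 and the S phase median 0.26 and -0.51. All-gene medians in these captures lay between -0.09 and 0.08.

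**Figure D5:**
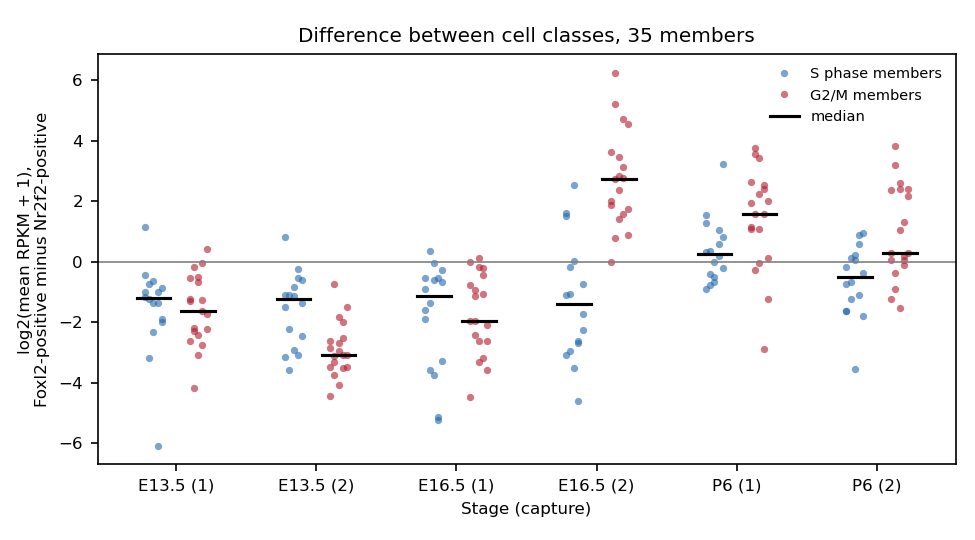
Difference in level between Foxl2-positive and Nr2f2-positive cells (y axis, log2 of mean RPKM + 1) for each member in each capture (x axis), with 1 point per member and black bars at the medians. The G2/M members lie at a median of -3.09 in E13.5 capture 2 and at 2.73 in E16.5 capture 2.

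In E16.5 capture 2, G2/M cells made up 2 of the 11 Foxl2-positive cells. They held 18 and 17 of 19 G2/M members at 10 RPKM or more and 5 and 4 of 16 S phase members, with Top2a at 436 and 193 RPKM and Plk1 at 289 and 325. Their Foxl2 levels were 9.21 and 3.76 RPKM, their Nr2f2 levels 204 and 165 RPKM, and Nr5a1 was at 1.09 and 7.34 RPKM. The other 3 G2/M cells of E16.5 were listed at 0 for Foxl2, with Nr2f2 at 49.6, 48 and 243 RPKM. Dazl and Ddx4 were listed at 0 in all 5. Whether these cells are doublets was not tested. The class difference was not recomputed without the 2 Foxl2-positive cells. For Top2a, their 436 and 193 RPKM made up most of the sum behind the mean of 58.4 RPKM over 11 cells. Ccna2 differed, with 35.1 RPKM in Foxl2-positive and 0.353 in Nr2f2-positive cells of capture 2. Its mean over that capture was 10.4 RPKM without the G2/M cells and 9.88 with them. For Top2a these means were 10.3 and 38.4 RPKM. The means without the G2/M cells also leave out 1 cell at 0 for Foxl2, with Top2a at 524 RPKM. They do not measure the class difference.

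Over the 4 captures of E13.5 and E16.5, with the capture as a block, the member median was -1.18 against -0.15 for all 16754 genes, and 32 of 35 members were lower in Foxl2-positive cells. None of the 35 passed limma's adjusted threshold, where 3 genes did (0.0179%), and 11 had an unadjusted p under 0.05, 9 of them S phase (8.53% of all genes). Rrm2 had the largest difference (-4.24 ± 0.64, adjusted p = 0.177), ahead of Cdc45 (-3.11 ± 0.65, adjusted p = 0.281), Cdc6 (-2.63 ± 0.67, adjusted p = 0.378), Cdt1 (-2.27 ± 0.58, adjusted p = 0.382), the G2/M member Birc5 (-2.0 ± 0.73, adjusted p = 0.511) and Tyms (-1.87 ± 0.44, adjusted p = 0.356). Top2a was at -1.43 ± 0.58 (adjusted p = 0.555), Pcna at -1.22 ± 0.54 (adjusted p = 0.583), Ccnb1 at -0.14 ± 1.06 and Cdc20 at 0.47 ± 1.10. The Foxl2-positive mean was the lower one in all 4 captures for 10 of 16 S phase and 0 of 19 G2/M members, against 11.2% of all genes. Markers of the surface epithelium, the layer that covers the gonad, differed between the classes as a sum. Their 4 genes summed to 67.2, 51.2, 30.5 and 36.7 RPKM in the Foxl2-positive cells of the 4 fetal captures and to 97.6, 76.7, 178 and 69.3 RPKM in the Nr2f2-positive cells. Of these, Upk3b was at 0 and 0.0207 RPKM in the Foxl2-positive cells of E16.5, against 31.2 and 21.1. Lgals7 was higher in Foxl2-positive cells in E13.5 capture 2 (40.7 against 25.4) and E16.5 capture 2 (33.6 against 14.7). It was lower in them in E13.5 capture 1 (34.8 against 42.9) and E16.5 capture 1 (26 against 45.5). When cells with a sum of 10 RPKM or more were left out, an alternative chosen after the data had been seen, 5 captures (E13.5 capture 1 and all of E16.5 and P6) could be fitted. The member median at E13.5 and E16.5 was then -0.39, with 14 of 16 S phase members lower (median -1.66) and 11 of 19 G2/M members (median -0.06). Rrm2 was at -4.77 ± 0.85 (limma adjusted p = 0.643) and Ccnb1 at 1.94 ± 1.41. Without the block, Rrm2 was lower with an adjusted p of 0.0420 and 13 genes were called. Without E16.5 capture 1 the member median was -0.13, and with each cell placed by the higher of Foxl2 and Nr2f2 it was -2.41. That last rule left 4 Foxl2 cells in E16.5 capture 2, under the minimum of 5, so its fit lacked that capture. All 19 G2/M members were higher in Foxl2-positive cells there under the main rule.

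At P6 the member median was 0.41 against 0.15 for all genes, with 15 of 19 G2/M and 8 of 16 S phase members higher in Foxl2-positive cells. No member and no other gene passed limma's adjusted threshold (0%), and 4 members had an unadjusted p under 0.05 (7.15% of all genes). Kif11 (3.02 ± 0.96, adjusted p = 0.561), Cdc20 (3.81 ± 1.55, adjusted p = 0.669) and Cenpe (2.32 ± 0.93, adjusted p = 0.669) were higher, and Cdc45 (-2.10 ± 0.91, adjusted p = 0.687) was lower. Cdc20 had 15.8 and 15.3 RPKM in Foxl2-positive and 0.229 and 0.137 in Nr2f2-positive cells. Kif11 had 10.4 and 9.90 RPKM against 0.0479 and 0.794. The Foxl2-positive mean was the higher one in both captures for 4 S phase and 12 G2/M members, against 30.4% of all genes. Under the rule of the higher gene, the P6 median was -0.97, so the direction at P6 depends on where cells with both genes are placed.

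The difference between P6 and the fetal captures was tested directly. Its member median was 1.89 against 0.36 for all genes, with 32 of 35 above 0. No member and no other gene passed limma's adjusted threshold (0%), and 7 members had an unadjusted p under 0.05 (7.34% of all genes), with Rrm2 lowest (3.998 ± 1.11, adjusted p = 0.595). The median was 1.09 without E16.5 capture 1 and 1.29 without cells that held surface epithelium markers. Mcm5, Mcm6 and Cdt1 were lower in Foxl2-positive cells in all 4 fetal captures and higher in both P6 captures, as were 3.02% of all genes.

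Beyond the members, no gene of 21 other replication genes, 21 other mitosis genes or 18 cell cycle regulators passed limma's adjusted threshold in any of the 7 comparisons. Between 0 and 6 of the other replication genes had an unadjusted p under 0.05 in a comparison, as did 1 to 5 of the other mitosis genes and 1 to 4 of the regulators. From E10.5 to E11.5, 20 of 21 other replication genes (median -0.79) and 21 of 21 other mitosis genes (median -1.24) were lower, as were 12 of 18 regulators (median -0.11). From E16.5 to P6, 20 of 21 other mitosis genes were higher (median 0.95), as were 13 of 21 other replication genes (median 0.46). In Foxl2-positive against Nr2f2-positive cells of E13.5 and E16.5, 20 of 21 other replication genes (median -1.02) and 18 of 21 other mitosis genes (median -0.78) were lower, and 10 of 18 regulators (median -0.06).

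Relative to E10.5, the median S phase member stood at 62.5% of its level at E11.5, 43.2% (E13.5), 33% (E16.5) and 26.2% (P6). The median G2/M member stood at 42.7%, 31.4%, 16.7% and 33.1%. For all 5543 genes at 10 RPKM or more at E10.5, a set chosen on that stage, the medians were 92.6%, 86.9%, 78.7% and 76.2%. By these stage means, the G2/M members were further below their E10.5 level than the S phase members at E16.5, and nearer to it at P6. The P6 captures differed, and the P6 order rests on capture 2. The median level was 8.71 RPKM (G2/M) and 29.5 RPKM (S phase) in P6 capture 1, and 19.6 and 17.6 in capture 2. At E10.5 it was 44.3 and 57.5 RPKM.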

How the data were processed

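One deposited table held 663 libraries, each 1 C1 chamber, and every column was matched to a sample (0 unmatched). Its values were taken as RPKM as deposited by the authors, since low values multiplied by gene length fell near whole multiples of 1 read. The file states no unit. Reads were not recovered, and count models were therefore avoided. The build named per the submitters' processing notes was GRCm38.p3 (mm10). For the aligner, counter, annotation and strand setting, nothing is stated (not given in the sources used here). Of 43347 names, 27 turned into dates were left out. A repeat library (r = 0.996) was averaged with its cell. No cell was removed and no doublet caller was run. The protocols name no molecular identifiers, and the depth behind each value was not recovered.

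Cells are not replicates, so captures, named by chip code in the titles, were. Nothing in the labels ties captures of 1 stage to separate litters or animals. A p-value here therefore reflects the capture-to-capture spread alone, possibly a technical one. limma 3.58.1 (R 4.3.3) fitted log2(capture mean + 1) with an intensity trend and Benjamini-Hochberg adjustment at 0.05. The stage fit used stage and sequencing series over 12 captures (19710 genes with a mean of at least 1 RPKM in a capture, 5 residual degrees of freedom). The class fit used 16 class means from 8 captures with at least 5 cells per class and a capture block (16754 genes, 4 residual degrees of freedom). The class rule first planned, with Nr2f2 under 1 RPKM in Foxl2-positive cells, left 2 captures and could not be fitted; the rule used replaced it after the cell counts had been seen. The block pairs the classes because both come from the same capture. The fits were tested on simulated data.

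The members and lists were chosen with earlier results of these data known. All 35 members got capture means. Test values are given for called members and for Mcm2, Pcna, Rrm2, Ccne1, Mki67, Top2a, Ccnb1 and Cdc20; other members are named for their extreme values or low unadjusted p, chosen after their values were seen. Sequences are from RefSeq (GRCm38.p6) and gene positions from GENCODE vM21. Tables were made with Python 3.11.15 and pandas 2.3.3. Alternatives were other pseudocounts, filters, scaling, averaging, thresholds and class rules, classes without cells that hold surface epithelium markers, and leaving out each capture.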

Additional observations from a re-analysis of the deposited data

How the results depend on the processing

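Of the recomputed counts of called members all stayed at 0 but 3: 17 from E10.5 to E11.5 with log2 values averaged over cells, 1 from E16.5 to P6 when P6 capture 1 was left out, and 1 for E13.5 and E16.5 with no replicate block, the fit without pairing of classes by capture. The block changed no other call among the members. The median change of the members from E10.5 to E11.5 was -2.07 with log2 averages and lay between -1.11 and -0.98 when captures were left out. From E11.5 to E13.5 it lay between -0.64 and -0.35. From E13.5 to E16.5 it was -0.73 with no series term and lay between -0.35 and 0.55. From E16.5 to P6 it was 0.30 with a pseudocount of 10 RPKM, 0.16 with log2 averages, and lay between 0.32 and 1.02. For the cell classes it lay between -1.44 and -0.13 at E13.5 and E16.5, between 0.08 and 1.05 at P6 (-0.97 with the higher of Foxl2 and Nr2f2), and between 1.09 and 2.49 for the difference between them. These spreads were set against 0.32 (stages) and 1.34 (classes), the SD of the median between captures.

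The share of S or G2/M cells depends on its thresholds. With 5 RPKM in place of 10 it was 70.8% (E11.5), 40.6% (E12.5), 65.1% (E13.5) and 21.1% (E16.5). With 20 RPKM it was 42.5% (E13.5), 11.9% (E16.5) and 23.5% (P6). With 4 members it was 83.02%, 57.8%, 73.6%, 32.2% and 36.7% from E11.5 to P6, and with 8 members 42.5%, 24.2%, 30.2%, 9.55% and 19.4%. Without E12.5 capture 2, the E12.5 share was 36.4% with 5 RPKM, 54.6% with 4 members and 19.3% with 8. With at least 5000 detected genes it was 53.3% (E12.5), 57.9% (E13.5) and 58.8% (P6). In each setting E10.5 had the highest and E16.5 the lowest stage mean. The captures did not stay apart in each: with 4 members, E16.5 was at 32.2% ± 13.7 and P6 at 36.7% ± 4.71 (n = 2 each). For the 8 members with planned test values, 922 of 976 recomputed differences kept direction and call, 49 changed sign with no call, and 5 became called. E10.5 to E11.5 without E10.5, E13.5 to E16.5 without E12.5 capture 3, and classes with Foxl2 at 5 RPKM and Nr2f2 under 1 could not be fitted. No stage could be blocked, since a capture holds 1 stage. The cause of these shifts was not tested.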
